A study of Homo sapiens with 6 samples.

Results

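HNRNPA2B1 and its 6 closest relatives of the hnRNP A/B and D group, HNRNPA1, HNRNPA3, HNRNPA0, HNRNPAB, HNRNPD and HNRNPDL, were followed in Huh7 cells, a human hepatoma line, after HNRNPA2B1 was targeted with a guide RNA. The genes were found by symbol, which gave 7 of the 25202 rows of a table of RNA-seq read counts. The control group was 3 libraries of Huh7 cells with a non-targeting guide (sgNC, genotype WT). The other group was 3 libraries of Huh7 cells with a guide against HNRNPA2B1, labelled a knockout. No treatment beyond culture is given for either group. The sources used here do not give where the guide cuts, nor whether the edited cells were 1 clone or a pool. They also do not state separate cultures for the replicates, and the p-values therefore reflect variation among these libraries that may be only technical.

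The proteins of this group carry a pair of RNA recognition motifs followed by a glycine-rich tail. They coat nascent transcripts in the nucleus, take part in the choice of splice sites and shuttle between nucleus and cytoplasm. HNRNPA2B1 encodes the A2 and B1 isoforms, which act in splicing and in the transport of RNA along cell processes. HNRNPA1 is a splicing repressor, HNRNPD (AUF1) binds AU-rich elements that set how fast an mRNA decays, and several members regulate their own transcripts or those of relatives.

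Totals ran from 32517757 to 38870244 counts per library, and 16331 genes had enough counts to be tested. The first principal component held 63.7% of the variance and separated the groups. Control replicate 3 stood apart from the other controls on the second component (13.1%). Values without it are given for several genes below, but not for every result. All 7 hepatocyte or hepatoma markers examined, ALB and AFP among them, were expressed. They summed to between 15078 and 19220 CPM (counts scaled to a common library total after TMM, a factor that evens out library composition) in controls and between 9471 and 10404 CPM in knockout libraries. ALB and AFP held most of these sums. TTR did not fall (log2 fold change 0.22, edgeR adjusted p = 0.244), and the rest of the list was lower at an edgeR adjusted p below 0.05. Of 4 leukocyte markers, PTPRC and CD3E were at 0 in all controls and at most 0.513 CPM in knockout libraries, while LYZ and CD68 brought the list to between 507 and 575 CPM in controls and between 216 and 236 CPM in the knockout. PECAM1 was the single endothelial marker of 3 above 1 CPM, and that list summed to between 54.3 and 70.2 CPM in controls and between 31.0 and 35.1 CPM in the knockout. Fibroblast or stellate markers, 3 of 4 above 1 CPM in some library, summed to between 1.10 and 1.32 CPM in controls and between 4.53 and 12.4 CPM in the knockout, with the top value in knockout replicate 2. Neither of the 2 keratinocyte markers reached 1 CPM. All libraries are labelled as the same cell line, Huh7, so these lists do not count cells of other types. In bulk RNA, a shift in the make-up of the culture and a shift in RNA per cell cannot be told apart. The part of these shifts in the results was not tested.

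HNRNPA2B1, HNRNPAB, HNRNPD and HNRNPDL fell in the knockout libraries, and HNRNPA1, HNRNPA3 and HNRNPA0 did not pass the test in either direction. The fall was 5.29-fold for the targeted gene and between 1.63-fold and 1.78-fold for the other three. Across all genes, 19.0% were called lower and 21.1% higher (40.1% in all) at an edgeR adjusted p below 0.05, so a call on a single gene is common in this comparison. Of the calls, 52.7% were higher with TMM, 72.1% when libraries were scaled by size alone and 64.4% under upper-quartile scaling. The 7 members, the targeted gene included, had a median log2 fold change of −0.71, against 0.053 for all genes tested. The gene that the guide targeted enters that median, which is therefore not a value of the relatives alone. Knockout libraries lay wholly below the controls for 5 members, the target among them, and wholly above them for 1. Of all genes, 54.3% had groups that did not overlap in either direction.

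**Figure D1:**
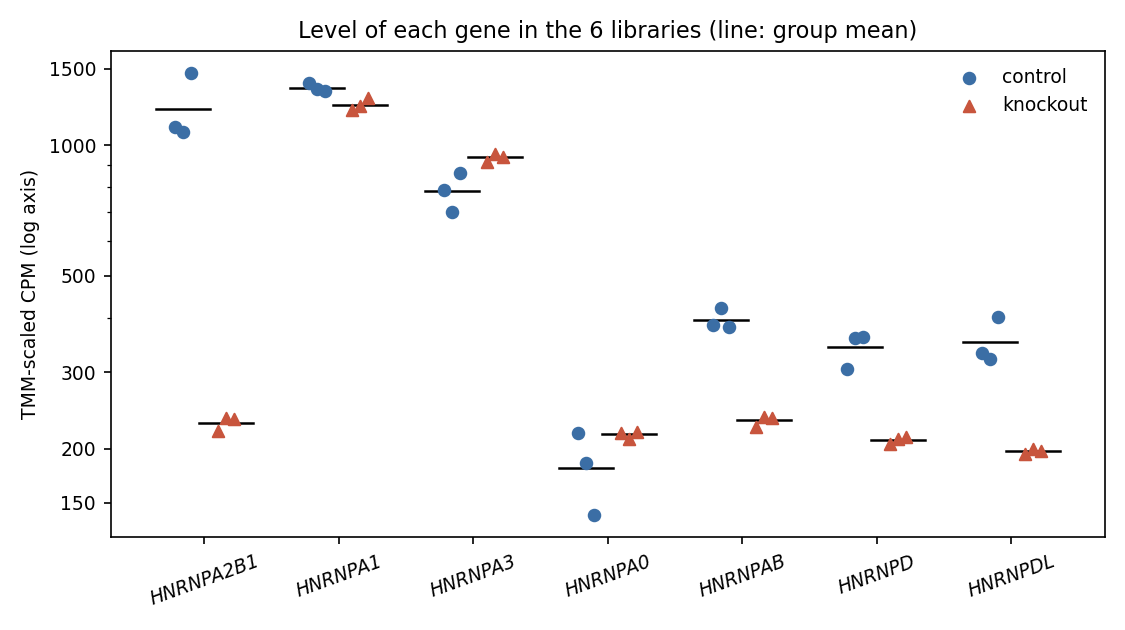
TMM-scaled CPM of each of the 7 genes (log axis) in the 3 control libraries (circles) and the 3 knockout libraries (triangles), with a line at each group mean. HNRNPA2B1 falls from a mean of 1214 to 229 CPM, HNRNPAB, HNRNPD and HNRNPDL lie lower in every knockout library, and HNRNPA0 overlaps.

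The targeted gene was examined first. HNRNPA2B1 (ENSG00000122566) was counted 40867, 32755 and 44149 times in control replicates 1 to 3, and 8729, 8232 and 8364 times in knockout replicates 1 to 3. These counts correspond to 1101, 1072 and 1468 CPM in the controls and to 220, 235 and 234 CPM in the knockout. Control replicate 3 was the highest library, and the groups were far apart. The knockout mean of 229 ± 8.30 CPM (SD, n = 3), against 1214 ± 221 CPM (SD, n = 3) for controls, left 18.9% of the control level. On the log2 scale this was −2.40 ± 0.14 (SE), with a 95% interval from −2.70 to −2.10 and an edgeR adjusted p of 2.28e-06. Without control replicate 3 the log2 fold change was −2.26. These are RNA levels, and they measure neither the edit in the gene nor the amount of protein left.

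The A2 and B1 isoforms differ by a short exon near the start of the coding sequence. It is shown because a count per gene adds both isoforms, so their balance cannot be read from these values. In GENCODE release 29 it has 36 bases (12 codons) and lengthens the coding sequence from 1023 to 1059 bases; the gene lies on chromosome 7.
B1 exon of HNRNPA2B1: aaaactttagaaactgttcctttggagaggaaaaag

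HNRNPA1, HNRNPA3 and HNRNPA0, the remaining A-type members, had knockout means between 91.4% and 119.5% of the control means. HNRNPA1 (ENSG00000135486) had 1392, 1347 and 1332 CPM in the controls and 1203, 1233 and 1284 CPM in the knockout, from counts between 40068 and 51653. All knockout libraries lay below all controls, by a small margin. The means were 1357 ± 31.2 and 1240 ± 41.2 CPM (SD, n = 3), for a log2 fold change of −0.13 ± 0.087 (SE; 95% interval −0.32 to 0.062; edgeR adjusted p = 0.255). Its sign depended on the scaling, since it was 0.052 with library size alone and 0.22 with cyclic loess.

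HNRNPA3 (ENSG00000170144), a partner of HNRNPA2B1 in RNA transport granules, had 789, 702 and 862 CPM in the controls and 917, 956 and 940 CPM in the knockout. Its counts lay between 21454 and 36406. It was the single member with all knockout libraries above all controls. The means were 785 ± 80.1 and 938 ± 19.5 CPM (SD, n = 3). Its log2 fold change of 0.26 ± 0.10 (SE) had a 95% interval from 0.030 to 0.48 and an edgeR adjusted p of 0.0688. The gene passed the threshold without control replicate 3 (log2 fold change 0.31, edgeR adjusted p = 0.0190) and in 4 of the other 15 settings tried.

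HNRNPA0 (ENSG00000177733), whose protein binds AU-rich elements and is a substrate of stress-activated kinase signalling, had 217, 185 and 140 CPM in the controls and 217, 211 and 219 CPM in the knockout. Control replicate 1 matched the knockout libraries and control replicate 3 was the lowest of all 6. The means were 181 ± 38.7 and 216 ± 4.23 CPM (SD, n = 3), for a log2 fold change of 0.25 ± 0.15 (SE; edgeR adjusted p = 0.195). Without control replicate 3 it was 0.081.

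HNRNPAB, HNRNPD and HNRNPDL fell by similar amounts. HNRNPAB (ENSG00000197451), first known as the CArG-box binding factor, had 385, 422 and 382 CPM in the controls and 225, 236 and 236 CPM in the knockout. The groups did not overlap. The means were 396 ± 22.2 and 232 ± 6.46 CPM (SD, n = 3), 1.71-fold lower, for a log2 fold change of −0.77 ± 0.097 (SE; edgeR adjusted p = 0.000238).

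HNRNPD (ENSG00000138668) had 306, 360 and 361 CPM in the controls and 205, 210 and 212 CPM in the knockout. Every knockout library lay below every control, and control replicate 1 was the lowest control. The means were 342 ± 31.6 and 209 ± 3.75 CPM (SD, n = 3), for a log2 fold change of −0.71 ± 0.10 (SE; edgeR adjusted p = 0.000602). HNRNPDL (ENSG00000152795), which encodes the AUF1-like protein JKTBP, had 332, 321 and 401 CPM in the controls and 194, 200 and 197 CPM in the knockout. Its knockout libraries lay within a few CPM of each other and below all controls. The means were 352 ± 43.2 and 197 ± 2.85 CPM (SD, n = 3), 1.78-fold lower, for a log2 fold change of −0.83 ± 0.11 (SE; edgeR adjusted p = 0.000346).

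The balance of HNRNPDL to HNRNPD, which lie next to each other on chromosome 4, did not move beyond the spread of the controls. There were 1.09, 0.894 and 1.11 counts of HNRNPDL per count of HNRNPD in the controls and 0.947, 0.951 and 0.928 in the knockout. All knockout ratios lay inside the control range. The difference of the mean log2 ratios was −0.12 (exact permutation test over libraries, 2-sided, p = 0.4).

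**Figure D2:**
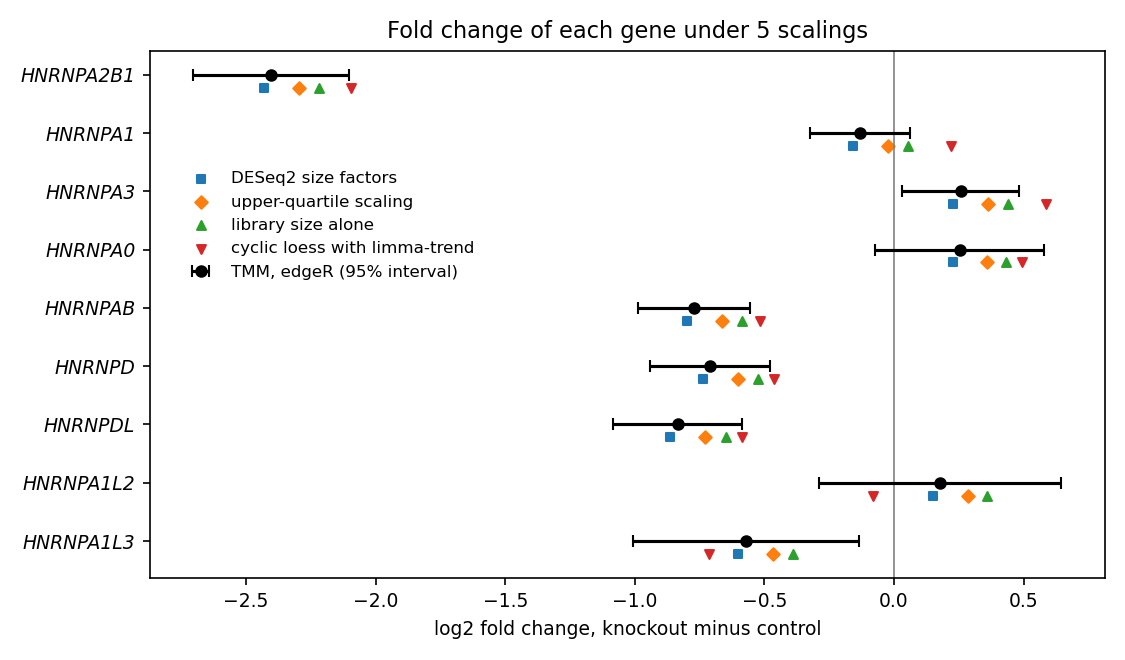
Log2 fold change, knockout minus control, of each of the 7 genes and of 2 copies of HNRNPA1, with the 95% interval of the TMM fit (black circle and bar) and the value under 4 other scalings (coloured symbols). HNRNPA2B1, HNRNPAB, HNRNPD and HNRNPDL lie below 0 under all 5 scalings, while HNRNPA1 and HNRNPA1L2 change sign.

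Because several members moved together, the sequences just before their starts are shown, with HNRNPA2B1 for comparison. They were read by gene symbol. RefSeq (GRCh38.p14) gave promoters for 6 members, 7 in all since HNRNPDL has a pair of starts. HNRNPA1 had no promoter in the set used and was not searched. The 250 bases before each start were searched on both strands for an E-box (the letters CACGTG), for a CCAAT box, which reads ATTGG on the other strand, and for a TATA box (the letters TATAAA). Matches are in capitals, and none overlaps another.
HNRNPA2B1, chr7:26200747-26200996, minus strand: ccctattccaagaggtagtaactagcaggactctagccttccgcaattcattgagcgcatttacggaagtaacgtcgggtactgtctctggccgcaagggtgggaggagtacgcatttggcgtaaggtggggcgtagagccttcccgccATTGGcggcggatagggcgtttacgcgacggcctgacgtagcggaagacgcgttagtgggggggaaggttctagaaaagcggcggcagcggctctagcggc
HNRNPAB, chr5:178204283-178204532, plus strand: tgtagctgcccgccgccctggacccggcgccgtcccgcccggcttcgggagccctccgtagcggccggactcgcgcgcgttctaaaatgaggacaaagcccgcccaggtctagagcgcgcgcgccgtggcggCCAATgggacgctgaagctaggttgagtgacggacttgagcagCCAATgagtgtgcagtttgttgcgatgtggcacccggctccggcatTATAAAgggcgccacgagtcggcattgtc
HNRNPD, chr4:82373992-82374241, minus strand: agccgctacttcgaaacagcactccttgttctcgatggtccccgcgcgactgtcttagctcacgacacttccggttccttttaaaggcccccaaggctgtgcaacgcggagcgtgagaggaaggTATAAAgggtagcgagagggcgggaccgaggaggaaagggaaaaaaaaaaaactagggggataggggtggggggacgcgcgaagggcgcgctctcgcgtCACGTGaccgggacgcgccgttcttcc
HNRNPDL, first start, chr4:82430226-82430475, minus strand: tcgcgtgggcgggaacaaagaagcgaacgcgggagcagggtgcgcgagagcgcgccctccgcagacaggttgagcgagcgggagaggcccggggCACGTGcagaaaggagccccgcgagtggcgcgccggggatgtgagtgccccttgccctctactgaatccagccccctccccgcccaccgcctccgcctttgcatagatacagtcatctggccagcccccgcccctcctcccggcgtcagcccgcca
HNRNPDL, other start, chr4:82430463-82430712, minus strand: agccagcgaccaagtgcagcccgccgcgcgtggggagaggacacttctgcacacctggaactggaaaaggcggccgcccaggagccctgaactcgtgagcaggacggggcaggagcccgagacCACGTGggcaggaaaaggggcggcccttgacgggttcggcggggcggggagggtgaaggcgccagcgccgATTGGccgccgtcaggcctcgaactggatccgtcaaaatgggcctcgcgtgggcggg
The E-box was present for HNRNPD, for both starts of HNRNPDL and for HNRNPA3, and in 6.34% of all 35116 promoters. A CCAAT box was present for HNRNPA2B1, HNRNPAB, HNRNPA3, HNRNPA0 and 1 start of HNRNPDL, and in 32.0% of all promoters. A TATA box was present for HNRNPAB and HNRNPD, and in 10.7% of all promoters. None of the 3 motifs was found for all of HNRNPAB, HNRNPD and HNRNPDL. GC content was 59.2% for HNRNPA2B1, 60.0% for HNRNPD, 66.0% for HNRNPAB and between 70.0% and 70.8% for HNRNPA3, HNRNPA0 and HNRNPDL, against a median of 58.0% over all promoters. A match describes the sequence and was not tested as a binding site.

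Coding sequences ordered the genes otherwise than their fold changes did. Identity was taken over aligned bases, with gaps left out. HNRNPA3 (74.9% identical bases) and HNRNPA1 (72.8%) were closest to HNRNPA2B1, ahead of HNRNPAB (65.5%), HNRNPA0 (59.8%), HNRNPDL (58.5%) and HNRNPD (57.6%). For HNRNPAB 83.2% of the shorter coding sequence was aligned, against 90.2% to 98.9% for the other relatives. The place of HNRNPAB in this order therefore depends on leaving gaps out. HNRNPAB, HNRNPD and HNRNPDL, the members that fell with the target, shared between 68.6% and 70.3% of aligned bases with each other, and HNRNPA1 and HNRNPA3 shared 77.8%. HNRNPAB and HNRNPD also had the most similar profiles over the 6 libraries of any pair of members, with a root-mean-square difference of 0.0805 in centred log2 CPM. HNRNPD and HNRNPDL differed by 0.117 on this scale, HNRNPA1 and HNRNPA3 by 0.218, and HNRNPA2B1 and HNRNPDL by 0.782.

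Levels of different genes were compared as CPM per kilobase of the longest coding transcript. In controls HNRNPA2B1 (331 ± 60.2) and HNRNPA1 (329 ± 7.56) led and overlapped, followed by HNRNPAB (221 ± 12.4), HNRNPA3 (138 ± 14.1), HNRNPD (113 ± 10.4), HNRNPDL (84.9 ± 10.4) and HNRNPA0 (20.7 ± 4.43 CPM per kilobase, SD, n = 3 for each). In the knockout the order was HNRNPA1 (301 ± 9.997), HNRNPA3 (165 ± 3.43), HNRNPAB (129 ± 3.60), HNRNPD (69.0 ± 1.24), HNRNPA2B1 (62.6 ± 2.27), HNRNPDL (47.6 ± 0.688) and HNRNPA0 (24.7 ± 0.485 CPM per kilobase, SD, n = 3 for each). By this length HNRNPA2B1 went from sharing the top place to the fifth, and HNRNPA3 passed HNRNPAB. No neighbours in the knockout order overlapped between libraries, and in the control order the first pair alone did. The length matters for HNRNPA2B1, whose exons together cover 5945 bases against 3664 in the transcript used. For HNRNPA1 these lengths are 4281 and 4121 bases. With all exons as the length, HNRNPA2B1 would lie below HNRNPA1 in the controls, so the shared top place depends on the transcript used.

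Within a library, shares of the summed counts of the 7 genes do not depend on scaling between libraries. HNRNPA2B1 made up 24.4%, 24.3% and 29.7% of them in the controls and 6.91%, 7.15% and 7.04% in the knockout. The mean share went from 26.1 ± 3.08% to 7.03 ± 0.120% (SD, n = 3; exact permutation test, 2-sided, p = 0.1, the smallest that 3 against 3 libraries can give). HNRNPA1 made up between 26.9% and 30.8% in the controls and between 37.6% and 38.7% in the knockout, and HNRNPA3 between 15.9% and 17.4% and between 28.3% and 29.1%. HNRNPA0 went from a mean of 3.94% to 6.61%. The shares of HNRNPAB (8.60% to 7.12%), HNRNPD (7.41% to 6.42%) and HNRNPDL (7.58% to 6.05%) were lower in the knockout with a smaller count of HNRNPA2B1 in the denominator. For each of the 7 shares the groups did not overlap, with the same smallest p of 0.1 (exact permutation test). The 7 shares depend on each other, and the rises of HNRNPA1, HNRNPA3 and HNRNPA0 also carry the smaller count of HNRNPA2B1.

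**Figure D3:**
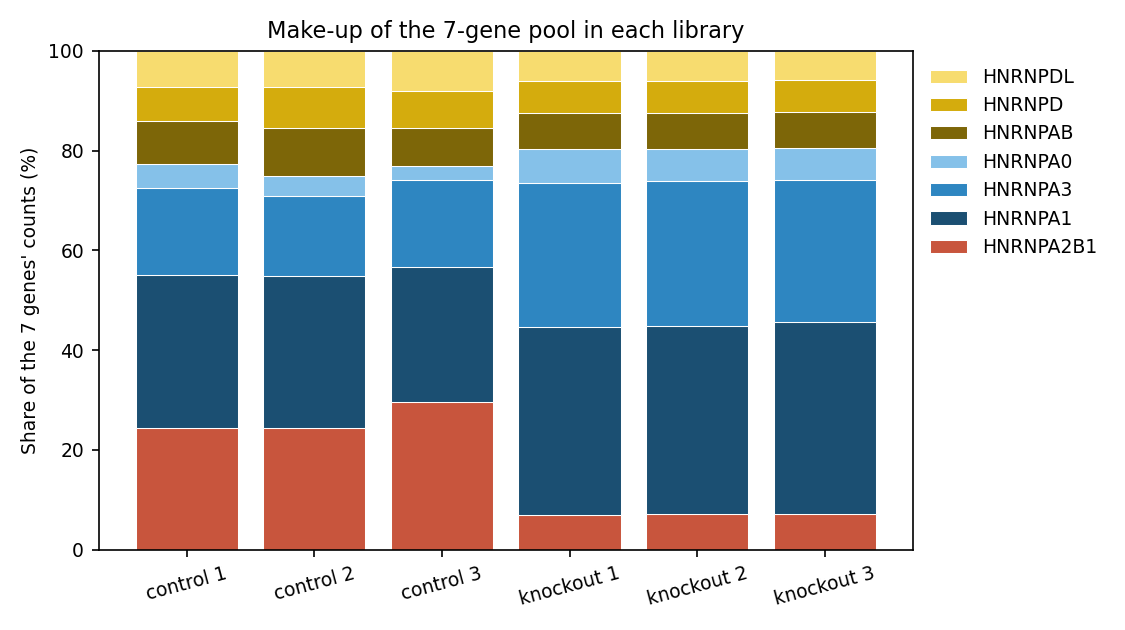
Share of the summed counts of the 7 genes (%) held by each gene, stacked, in each of the 6 libraries. HNRNPA2B1 (bottom, red) shrinks from a mean of 26.1% to 7.03%, and HNRNPA1 and HNRNPA3 (blues) together widen.

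HNRNPA1 had 1.26, 1.26 and 0.908 counts per count of HNRNPA2B1 in the controls and 5.47, 5.26 and 5.49 in the knockout. HNRNPA3 had 0.716, 0.655 and 0.587 counts per count of HNRNPA2B1 in the controls and 4.17, 4.07 and 4.02 in the knockout. HNRNPAB had between 0.260 and 0.393 in the controls and between 1.01 and 1.02 in the knockout. All 6 ratios thus rose, and each carries the fall of HNRNPA2B1 (log2 fold change −2.40) in its denominator. A rise therefore does not mean that the relative itself rose, and HNRNPAB, HNRNPD and HNRNPDL fell. The log2 ratio rose by 2.26 for HNRNPA1, 2.65 for HNRNPA3, 2.67 for HNRNPA0, 1.62 for HNRNPAB, 1.68 for HNRNPD and 1.56 for HNRNPDL (exact permutation test, 2-sided, p = 0.1 for each, 0.1 after adjustment over the 6 ratios). Each rise was seen in all 3 knockout libraries. The 6 tests share a denominator and are not separate results about the relatives.

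The summed relatives were not higher in the knockout under TMM scaling. Their summed level was 3421, 3337 and 3479 CPM in the controls and 2961, 3046 and 3088 CPM in the knockout. All knockout sums lay below all control sums. The means were 3412 ± 71.4 and 3032 ± 64.9 CPM (SD, n = 3; exact permutation test, 2-sided, p = 0.1), a difference of −381 CPM. With library size alone as the scaling the difference was 28.7 CPM (p = 0.6, exact permutation test), so its sign depended on the scaling. With HNRNPA2B1 included, the 7 genes summed to 4626 ± 283 CPM in the controls and 3261 ± 72.6 CPM in the knockout (SD, n = 3), 70.5% of the control level. HNRNPA1, HNRNPA3 and HNRNPA0 summed to 103% of the control level, and HNRNPAB, HNRNPD and HNRNPDL to 58.6%. The counts of the former group per count of the latter were 2.35, 2.03 and 2.04 in the controls and 3.74, 3.71 and 3.79 in the knockout. This grouping was made after the values were seen and has no test.

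HNRNPA1 and HNRNPA3 have many processed copies in the genome, which bears on how reads were assigned. The symbol table lists 100 symbols made of a member's symbol and a suffix, such as that of a copy, an antisense or a readthrough gene. Of these, 76 belong to HNRNPA1 and 16 to HNRNPA3, and 2 had a row analysed here. Of all 50-base windows of the HNRNPA1 transcripts, 25.7% also occurred in transcripts of other genes, and for HNRNPA3 it was 18.1%. The share was 8.63% for HNRNPAB, 5.06% for HNRNPD, 1.52% for HNRNPA2B1, 0.130% for HNRNPDL and 0% for HNRNPA0. The sources used here do not give how reads with several matches were counted, so the levels of HNRNPA1 and HNRNPA3 are less certain than those of the rest.

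HNRNPA1L2 (ENSG00000139675; coding sequence 98.4% identical to HNRNPA1) had 7.82, 4.97 and 5.79 CPM in the controls and 6.12, 7.52 and 7.41 CPM in the knockout, and the groups overlapped. It had a log2 fold change of 0.18 ± 0.21 (SE; edgeR adjusted p = 0.529). HNRNPA1L3 (ENSG00000224578; 99.3% identical) had 13.0, 18.4 and 18.7 CPM in the controls and 10.3, 9.43 and 13.9 CPM in the knockout. Knockout replicate 3 lay above control replicate 1. Its log2 fold change was −0.57 ± 0.20 (SE; edgeR adjusted p = 0.0396), and the call was lost in 7 of 16 other settings, where adjusted p reached 0.150. Their values are uncertain, since reads of HNRNPA1 may have been counted for these near-identical copies.

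Genes next to the members were examined for changes along the chromosome. CBX3, a heterochromatin protein gene that starts head to head with HNRNPA2B1 and overlaps it, had 246, 142 and 162 CPM in the controls and 183, 205 and 185 CPM in the knockout. Control replicate 1 was the highest and the groups overlapped. The log2 fold change was 0.061 ± 0.18 (SE; edgeR adjusted p = 0.810), and it was −0.099 without control replicate 2 and −0.033 without control replicate 3. NFE2L3, a transcription factor gene on the other side, had a mean of 94.4 ± 6.02 CPM in controls and 101 ± 8.82 CPM in the knockout (SD, n = 3; log2 fold change 0.10 ± 0.11, edgeR adjusted p = 0.481). No change of either neighbour of the target was detected beyond the spread of these libraries.

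PHYKPL, which overlaps HNRNPAB on the opposite strand and shares 7.21% of its windows, had 11.1, 14.0 and 13.7 CPM in the controls and 18.6, 15.8 and 15.3 CPM in the knockout. Its libraries lay above the controls while those of HNRNPAB lay below (log2 fold change 0.36 ± 0.15, edgeR adjusted p = 0.0819). RASGEF1B lies on the far side of HNRNPD, across a gap of 308253 bases. It rose from 0.176 to 0.834 CPM with 0 to 11 counts per control library (log2 fold change 2.19 ± 0.76, edgeR adjusted p = 0.0416), a call lost in 6 of 15 other settings with adjusted p up to 0.113. ENOPH1, on the far side of HNRNPDL across 153 bases, had 84.3 ± 8.39 CPM in the controls and 77.9 ± 4.44 CPM in the knockout (edgeR adjusted p = 0.451). Neither gene flanking the HNRNPD and HNRNPDL pair was called lower.

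CBX5, another heterochromatin protein gene, which lies 59 bases upstream of HNRNPA1, went from 455 ± 52.6 to 361 ± 10.4 CPM (SD, n = 3; log2 fold change −0.34 ± 0.11, edgeR adjusted p = 0.0329), a call lost in 8 of 16 other settings with adjusted p up to 0.725. MTX2, a mitochondrial import gene 874537 bases upstream of HNRNPA3, fell (log2 fold change −0.55 ± 0.12, edgeR adjusted p = 0.00455). NFE2L2, the oxidative stress regulator downstream of HNRNPA3, had a log2 fold change of −0.068 ± 0.14 (edgeR adjusted p = 0.733), which was 0.098 without control replicate 3 and above 0 under 3 other scalings. KLHL3, downstream of HNRNPA0, rose from 0.633 ± 0.222 to 2.14 ± 0.644 CPM (SD, n = 3; log2 fold change 1.76 ± 0.40, edgeR adjusted p = 0.00640). NFE2, MYOT and GMCL2 had too few counts to be tested.

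**Figure D4:**
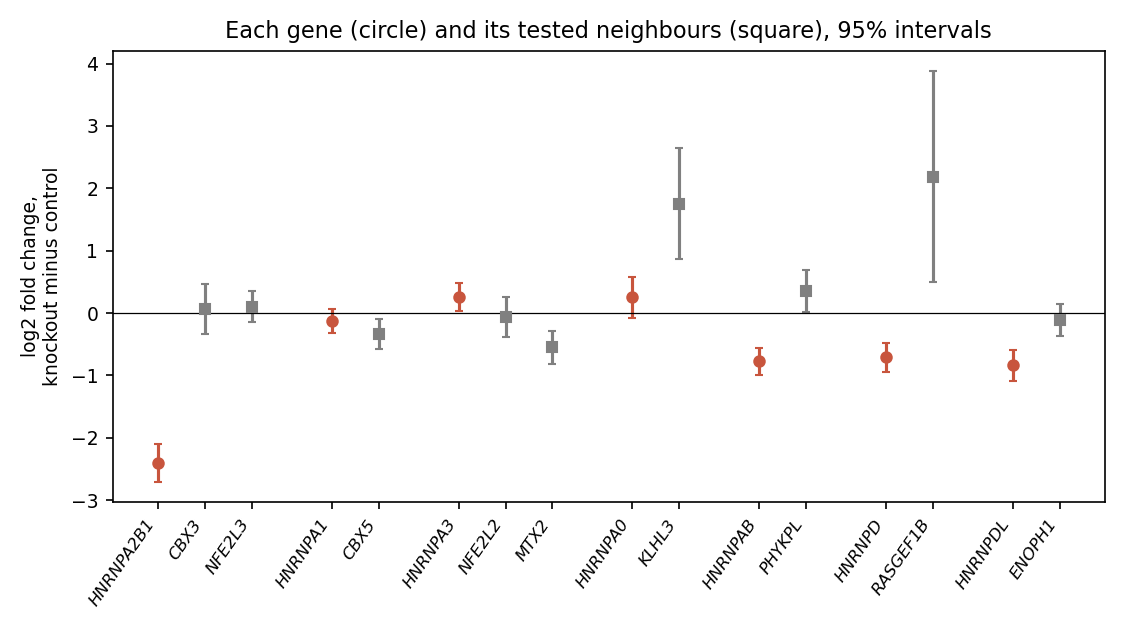
Log2 fold change, knockout minus control, with its 95% interval, of each of the 7 genes (red circles) and of the tested neighbouring genes (grey squares). The neighbours CBX3 and NFE2L3 lie at 0.061 and 0.10 beside HNRNPA2B1 at −2.40.

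Other hnRNP genes, outside the A/B and D group, mostly fell as well. Of 21 tested, 15 fell, 0 rose and 6 did not pass, with a median log2 fold change of −0.42 against 0.053 over all genes. Of all genes, 19.0% were called lower. PTBP1, a repressor of exon inclusion, had 664, 882 and 786 CPM in the controls and 406, 411 and 424 CPM in the knockout (log2 fold change −0.91 ± 0.12, edgeR adjusted p = 0.000261). HNRNPC, which binds uridine tracts, had a log2 fold change of −0.82 ± 0.095 (edgeR adjusted p = 0.000154). HNRNPL, which binds CA-rich sequences, and HNRNPR had log2 fold changes of −0.83 ± 0.096 and −0.79 ± 0.13. The falls of HNRNPAB, HNRNPD and HNRNPDL were of the size of those of these 4 genes, which were picked by smallest p. They were larger than the list's median of −0.42. Only HNRNPA2B1 in either list had a log2 fold change below −1. The count of 15 was 9 with library size alone and 7 with cyclic loess.

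Among 4 further relatives with a pair of RNA recognition motifs, MSI1 (log2 fold change −0.74 ± 0.15, edgeR adjusted p = 0.00300) and DAZAP1 (−0.53 ± 0.12, edgeR adjusted p = 0.00646) fell, and the median was −0.40. TARDBP, which encodes TDP-43, had a log2 fold change of −0.26 and MSI2 of −0.14, and neither passed. Of all genes, 19.0% were called lower. With cyclic loess in place of TMM, DAZAP1 was no longer called (limma adjusted p = 0.0556).

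Of 5 genes that import or modify these proteins, 4 fell and the median was −0.58, against 19.0% of all genes called lower. PRMT1, which methylates arginines of the glycine-rich tail, had 347, 435 and 366 CPM in the controls and 222, 227 and 237 CPM in the knockout (log2 fold change −0.74 ± 0.11, edgeR adjusted p = 0.000681). TNPO2, a transportin, had a log2 fold change of −0.58 ± 0.10 (edgeR adjusted p = 0.00160). RAN, the GTPase of nuclear transport, had −0.32 ± 0.098 (edgeR adjusted p = 0.0238), a call lost in 7 of 16 other settings with adjusted p up to 0.731. TNPO1, the transportin that carries HNRNPA1 and HNRNPA2B1 into the nucleus, had a log2 fold change of 0.11 ± 0.17 and did not pass (edgeR adjusted p = 0.630).

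HNRNPD competes with other proteins for AU-rich elements. Of 7 other binders, 5 fell and the median was −0.56, against 19.0% of all genes called lower. ZFP36, which recruits the deadenylation machinery, had 53.5, 93.6 and 107 CPM in the controls and 30.3, 27.4 and 34.0 CPM in the knockout (log2 fold change −1.47 ± 0.22, edgeR adjusted p = 0.000657). Its relative ZFP36L1 had a log2 fold change of −1.23 ± 0.24, and ZFP36L2 of −0.56 ± 0.13. ELAVL1, the stabilising factor HuR, had −0.69 ± 0.10, and KHSRP had −0.56 ± 0.12, the latter not called with cyclic loess (limma adjusted p = 0.122). TIA1 (0.19) and TIAL1 (−0.12) did not pass. Both destabilising and stabilising binders were among those that fell.

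mRNAs known from the literature as targets of HNRNPD moved both ways. Of 11 listed, 10 were tested, 3 rose, 3 fell and 4 did not pass, and the median log2 fold change was 0.18. Across all genes 21.1% were called higher and 19.0% lower, and with so few genes 3 of 10 each way is not far from those shares. GADD45A, a growth arrest gene, had 36.3, 38.2 and 40.0 CPM in the controls and 73.1, 68.5 and 65.5 CPM in the knockout (log2 fold change 0.85 ± 0.11, edgeR adjusted p = 0.000205). CXCL8, a neutrophil chemokine, had 31.0, 17.8 and 16.2 CPM in the controls and 50.3, 60.0 and 48.8 CPM in the knockout (log2 fold change 1.29 ± 0.22, edgeR adjusted p = 0.00142). The groups did not overlap for either gene.

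TERT, the telomerase subunit, had a log2 fold change of −0.71 ± 0.13 (edgeR adjusted p = 0.00168), and cyclin D1 (CCND1) of −0.44 ± 0.092 (edgeR adjusted p = 0.00399), the latter not called with cyclic loess (limma adjusted p = 0.192). JUN, at 0.50 ± 0.12, and MYC, at −0.74 ± 0.16, were the other called genes of this list. CDKN1A (0.31), VEGFA (−0.098), IL6 (0.44) and FOS (0.058) did not pass, and BCL2 was not tested. The last list held 6 genes of m6A methylation and primary microRNA processing, pathways in which HNRNPA2B1 has been placed as a reader. Of these DROSHA alone fell (log2 fold change −0.72 ± 0.13, edgeR adjusted p = 0.00168). Across all genes 19.0% were called lower, and 1 of 6 lies close to that share. METTL3 (−0.14), METTL14 (−0.25), WTAP (0.18), YTHDC1 (−0.24) and DGCR8 (0.076) did not pass, and the median was −0.19.

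**Figure D5:**
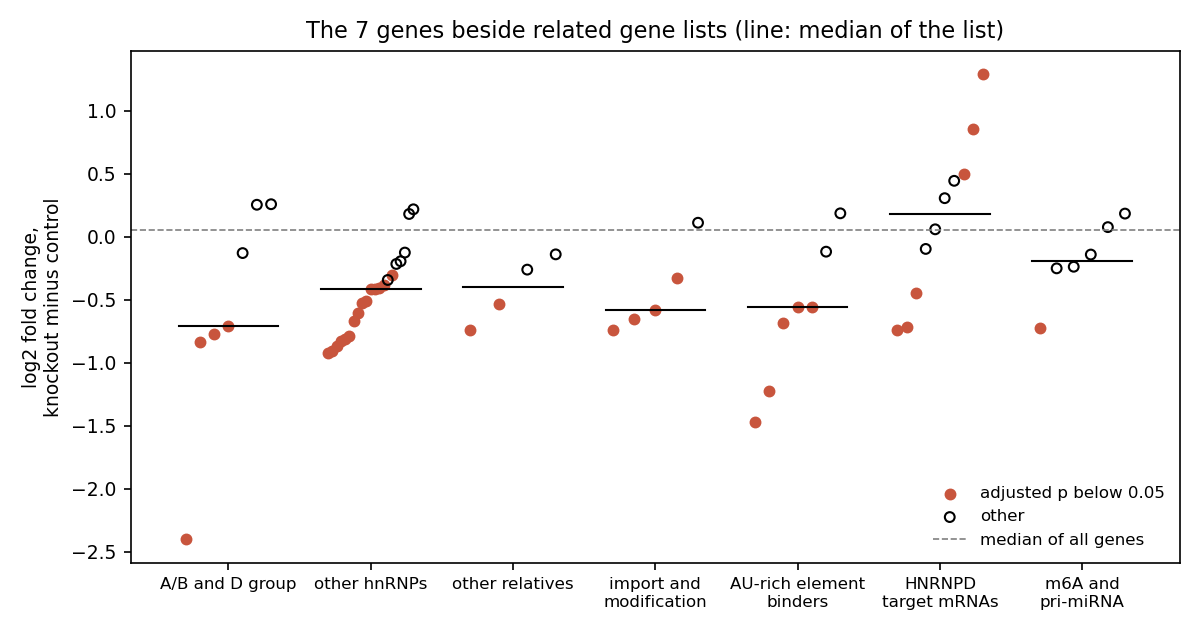
Log2 fold change, knockout minus control, of the 7 genes and of the tested genes of 6 related lists, with filled points for an edgeR adjusted p below 0.05, a line at each list's median and a dashed line at the median of all genes (0.053). The other hnRNP genes centre on −0.42, and the HNRNPD target mRNAs spread to both sides. The median of the 7 genes includes the targeted HNRNPA2B1.

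The genes whose profile over the 6 libraries was nearest to that of HNRNPA2B1 were not of its family. Of the 10336 genes whose log2 CPM averaged 3 or more, HMGA2, a chromatin architectural factor, was nearest, with a root-mean-square difference of 0.135 in centred log2 CPM. HMGA2 had 280, 294 and 396 CPM in the controls and 54.4, 68.9 and 76.6 CPM in the knockout, and control replicate 3 was the highest library, as it was for HNRNPA2B1. ATP10D (0.181), PDGFRA (0.191), WNK4 (0.204) and GNG4 (0.205) followed. Their log2 fold changes ran from −2.61 for PDGFRA to −2.09 for WNK4. HNRNPDL ranked 491, HNRNPAB 686, HNRNPD 818, HNRNPA1 4508, HNRNPA3 7492 and HNRNPA0 8007. Much of this measure comes from the difference between the groups. The ranks of the relatives therefore largely restate their fold changes and are not a separate result. The likeness is a description over 6 libraries and has no test.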

How the data were processed

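The deposited table holds raw read counts per gene, made by the authors, for 6 libraries. The submitters' processing notes name hg19, with no role. The sources used here do not name the aligner, counting tool, annotation or any use of strand, so overlapping genes can share reads. Of 25202 rows, 19974 carry an Ensembl ID (19883 matched to a symbol) and 5228 are loci added by the authors' pipeline, which were kept. Every row is named, and 3195 rows are 0 throughout.

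Groups were compared in edgeR 4.0.16 under R 4.3.3 (filterByExpr, TMM, the quasi-likelihood test on group alone, Benjamini-Hochberg over 16331 genes, called at an adjusted p below 0.05). The biological coefficient of variation was 17.6%. CPM values were computed here with TMM. Shares, sums and ratios were compared by exact permutation tests (SciPy 1.17.1). Replicates differed by a chi-square per degree of freedom of at least 9.35, so none was counted as a repeat deposit. The code was tested on simulated data.

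The members and lists were chosen with earlier results of these data known. Named genes were the 7 members, their copies, the nearest protein-coding gene on each side, up to 4 called genes with the smallest p per list, and the 5 profiles nearest to HNRNPA2B1 (log2 CPM, prior count 2). JUN, MYC, ZFP36L2 and the list genes that did not pass were named after their values were seen. Values of 1 list gene under this rule are not reported here. Lengths, coding sequences (aligned with Biopython 1.88), neighbours and windows came from GENCODE release 29 and promoters from RefSeq GRCh38.p14, a different build from hg19, so no coordinates are given for the counted genes. Alternatives were other scalings (DESeq2 size factors, upper quartile, library size, cyclic loess with limma 3.58.1), filters, DESeq2 1.42.0, limma-voom, a replicate block and leaving out each library. Leaving out the added loci was chosen after seeing the data. Python 3.11.15 and matplotlib 3.10.9 drew the figures.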

Additional observations from a re-analysis of the deposited data

How the results depend on the processing

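The fall of HNRNPA2B1, HNRNPAB, HNRNPD and HNRNPDL kept its direction and call in all 16 other settings, with log2 fold changes from −2.50 to −2.10, −0.83 to −0.52, −0.82 to −0.46 and −0.91 to −0.59. The scaling moved the other members. The median of all genes was 0.053 with TMM, 0.16 with upper-quartile scaling, 0.24 with library size alone and −0.0044 with cyclic loess, and 52.7%, 64.4%, 72.1% and 50.7% of calls were then higher. Relative to that median HNRNPA1 stood at −0.18 with TMM and with library size alone and at 0.22 with cyclic loess. The cause of these shifts was not tested.

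With upper-quartile scaling, library size alone and cyclic loess the log2 fold change of HNRNPA3 was 0.36, 0.44 and 0.59 and it was called (adjusted p from edgeR or limma 0.0156, 0.00607 and 0.00258), as it was without the added loci (0.30). HNRNPA0 was called with library size alone (0.43) and cyclic loess (0.49). HNRNPA1 turned to 0.052 and 0.22 under these 2 settings, and the summed CPM of the relatives to a difference of 28.7 with library size alone. Members called higher were 1, 2 and 2 under the 3 scalings and 1 without the added loci. Other hnRNP genes called higher were 2 with library size alone and 1 with cyclic loess, and lower 9 and 7. Other relatives called lower were 1 with cyclic loess, and m6A and microRNA genes called higher were 1 under each of the 3 scalings. Of all genes, 1878 were lower with library size alone. HNRNPA1L2 turned to −0.079 with cyclic loess, NFE2L2 to 0.040, 0.12 and 0.24 under the 3 scalings, and ENOPH1 to 0.068 with library size alone and 0.029 with cyclic loess.

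Leaving out each library in turn gave 0.17 to 0.31 for HNRNPA3, −0.099 to 0.30 for CBX3 and −0.19 to 0.098 for NFE2L2. It gave 2047 (without knockout replicate 1) to 3439 genes lower, 0 to 1 members and 0 to 1 other hnRNP genes higher, and 1 to 3 m6A and microRNA genes lower. HNRNPA3 and PTBP3 were called higher without control replicate 3.

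Replicate numbers did not pair the samples (correlations of deviations 0.042, −0.071 and −0.073). With the replicate number as a block, 3126 genes were higher and 2613 lower, HNRNPA2B1 had −2.39 and 4 members were lower. The single-gene values of the 35 other named genes kept direction and call in 517 of 559 cases, lost the call in 31, gained it in 2 and reversed in 9. RASGEF1B had no value under a filter of 1 CPM in 3 libraries.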
